A study of Mus musculus with 8 samples.

Results

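The chemokine ligands and chemokine receptors of the E11.0 mouse pancreas bud are described here. They were taken by symbol from the authors' expression table, as every gene named *Ccl*, *Cxcl*, *Cx3cl*, *Xcl*, *Ccr*, *Cxcr*, *Cx3cr*, *Xcr* or *Ackr* with a number and at most 1 letter after it. That gave 61 of the 24341 genes in the table, of which 39 encode ligands, 18 signalling receptors and 4 atypical receptors. RNA came from 8 individual buds at E11.0, all labelled as strain CD1, 5 labelled WT and 3 labelled Pdx1Creearly;Lats1f/f;Lats2f/f, called *Lats1/2*-null below. In the null buds Cre under the *Pdx1* promoter removes the Hippo pathway kinases *Lats1* and *Lats2* in pancreatic progenitors, while the mesenchyme, vessels and blood cells of the bud keep both genes. The methods state that mutants were compared with WT or heterozygous littermates, and that mesenchyme was pulled away with forceps before RNA was isolated. The comparison between the genotypes asks how the family differed in the bud soon after deletion of the kinases.

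Chemokines are small secreted proteins that direct the migration of cells along gradients. They act through G protein-coupled receptors that signal mainly through Gi proteins, and atypical receptors bind and remove ligands without that signal. Some ligands, such as CXCL12, are produced steadily in developing tissue and guide progenitors, vessels and nerves, whereas many others are barely made until inflammatory signals such as NFκB induce them in tissue cells and leukocytes.

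Expression was given as FPKM, which scales fragments by transcript length and library depth, so that levels of different genes can be compared per length. A single fragment raised a transcript of 1000 bases by 0.1 to 0.108 FPKM in 7 libraries and by 0.133 FPKM in WT replicate 5. Levels of that size rest on a few fragments at most. Pairs of libraries correlated with r from 0.926 to 0.965 across genes, which are not independent replicates, and no pair was identical. *Lats1* measured 15.6 ± 0.905 FPKM in WT buds (SD, n = 5) and 12.1 ± 1.87 FPKM in null buds (SD, n = 3), and *Lats2* measured 13.8 ± 1.26 and 12.3 ± 1.15 FPKM. Both transcripts thus remained in the null libraries. Those libraries also contain cells in which the Cre does not act, and the source of the remaining RNA was not tested. The limma p-values below set the difference between genotypes against the spread between these embryos, with that spread drawn in part from other genes. The permutation p-values rank that difference among all splits of the same buds into groups of 5 and 3.

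Of the 61 genes, 44 were above 0 FPKM in at least 1 library, or 72.1%, against 77.6% of all genes in the table. In every library 16 were above 0. Single libraries showed between 24 and 35 of the 61, where 16117 to 16982 of the 24341 genes in the table were above 0. Only 10 of the 61 reached a mean of 0.5 FPKM, the level from which genes were tested, or 16.4%, against 56.6% of all genes. The tested genes were 6 ligands (*Cxcl12*, *Ccl27a*, *Ccl25*, *Cxcl13*, *Cx3cl1* and *Ccl19*), 3 signalling receptors (*Cxcr4*, *Cx3cr1* and *Cxcr6*) and the atypical receptor *Ackr3*. The other 34 detected genes had means between 0.00783 and 0.395 FPKM, with a median of 0.1, and their highest single value was 1.18 FPKM, for *Ccl3* in WT replicate 5. At the limit, *Cxcr6* with a mean of 0.563 FPKM was the lowest gene tested, and *Cxcl16* with 0.395 FPKM was the highest left out. The share of the family above 0 in at least 1 library was thus close to that of all genes. Its share at a mean of 0.5 FPKM was far lower, and most detected members rested on a few fragments per library.

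The remaining 17 genes were listed at 0 in all 8 libraries. Among them were the monocyte and eosinophil attractants *Ccl7*, *Ccl8* and *Ccl11*, the T cell attractants *Ccl1*, *Ccl22*, *Cxcl9*, *Cxcl11* and *Xcl1*, the neutrophil attractant *Cxcl2*, and *Ccl21b*, *Ccl21c*, *Ccl26* and *Ccl27b*. The receptors at 0 were *Ccr6*, *Ccr8*, *Cxcr1* and *Xcr1*. *Ccl21b*, *Ccl21c* and *Ccl27b* belong to families of near-identical copies, among which the counting can divide or drop fragments, so their zeros are uncertain.

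**Figure D1:**
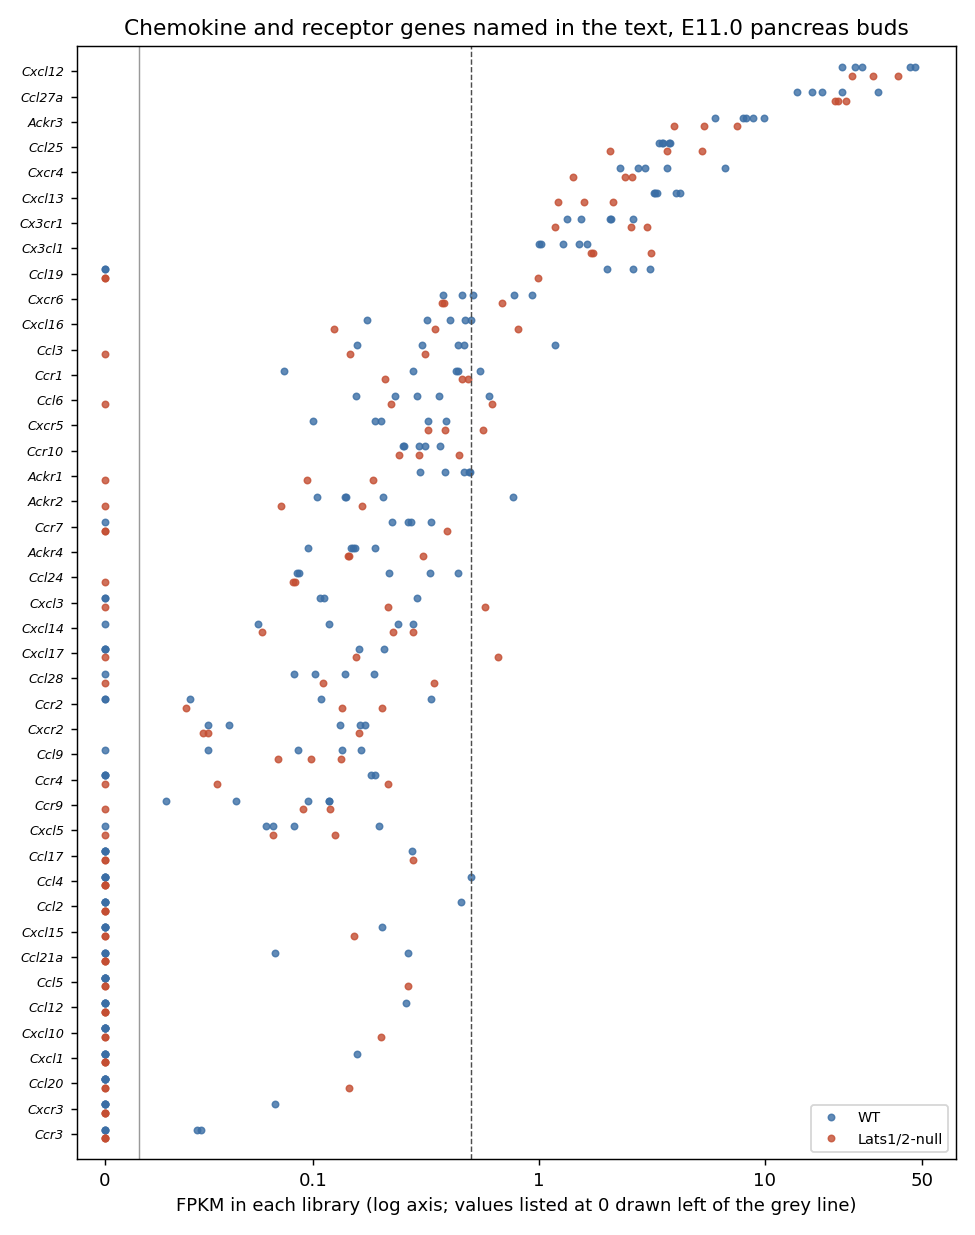
FPKM per library of the detected chemokine and receptor genes named in the text, ordered by mean, on a log axis with values of 0 left of the grey line; each point is a WT (blue, n = 5) or *Lats1/2*-null (red, n = 3) bud and the dashed line is the limit of 0.5 FPKM for testing. *Cxcl12* and *Ccl27a* lie above the other genes in every library, and most of the family lies under 1 FPKM.

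Among the ligands taken by the naming rule, a pair made up most of the RNA. The summed FPKM of these ligands lay between 49.3 and 77.4 in WT buds and between 57.6 and 68.7 in null buds. *Cxcl12* with *Ccl27a* gave 78.9 to 86.8% of that sum in every library. The sum leaves out the chemokine genes *Pf4* and *Ppbp*, which the rule does not take. *Pf4* lay between 17.1 and 41.1 FPKM in WT and between 27.9 and 55.2 FPKM in null buds. Among receptors, *Ackr3* and *Cxcr4*, which both bind CXCL12, gave 55.3 to 72.5% of the summed FPKM. That receptor sum lay between 14.3 and 19.2 in WT buds and between 8.86 and 14.8 in null buds, so the groups overlapped.

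In the comparison of genotypes, 0 of the 10 tested members passed an adjusted p of 0.05 by limma on log2(FPKM + 1), where 0.0145% of the 13777 genes tested passed, 2 genes in all. At an unadjusted p under 0.05 there were 3 of 10, against 11.3% of all genes tested. *Cx3cl1* was higher in null buds, as were 6.29% of all genes at that limit, and *Cxcl13* and *Ackr3* were lower, as were 4.99%. In 2 of the 10 the genotypes did not overlap, against 7.51% of all genes tested. *Cx3cl1* lay wholly above the WT buds, as did 4.46% of all genes, and *Cxcl13* wholly below, as did 3.06%. By sign, 3 members had a higher and 7 a lower level in null buds, and their median log2 fold change was -0.08, beside -0.01 over all genes tested. Without *Lats1/2*-null replicate 3, and likewise without WT replicate 2 or WT replicate 4, only 1 member, *Cxcl13*, was under an unadjusted p of 0.05. In a bulk sample fewer cells of a type and less RNA per cell cannot be told apart. The added 1 FPKM makes log2 fold changes smaller than the change in FPKM for low genes.

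**Figure D2:**
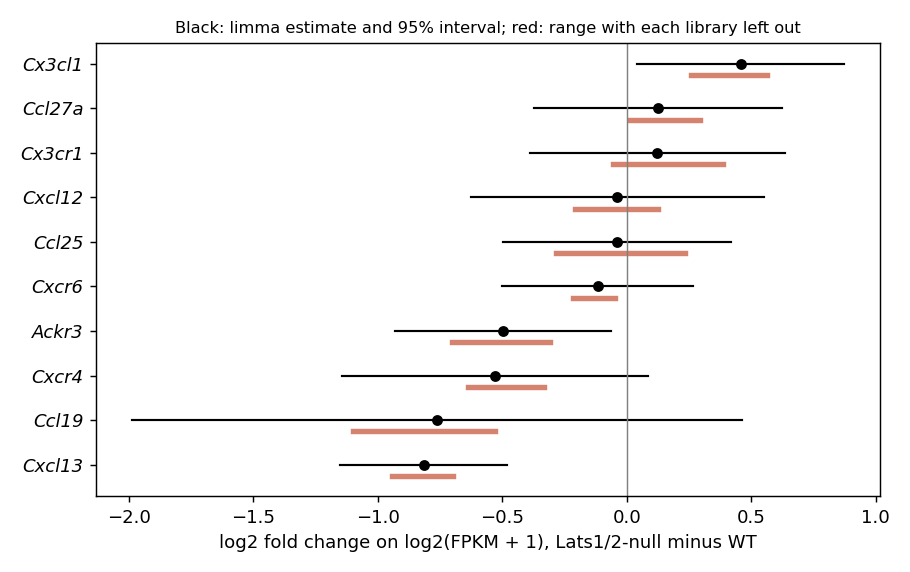
Log2 fold change (*Lats1/2*-null minus WT, on log2(FPKM + 1)) with its 95% confidence interval in black for each of the 10 tested genes, and in red the range with each library left out. The interval of *Cxcl13* lies farthest below 0, from -1.15 to -0.48, that of *Cx3cl1* lies just above 0, and that of *Ccl19* is the widest.

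*Cxcl13*, which draws B cells and lymphoid tissue inducer cells through CXCR5, had the smallest p of the family. It measured 4.22, 3.23, 3.27, 3.33 and 4.07 FPKM in WT replicates 1 to 5 and 1.58, 2.13 and 1.22 FPKM in null replicates 1 to 3. All null buds were below all WT buds, with a WT mean of 3.62 ± 0.476 FPKM (SD, n = 5) and a null mean of 1.64 ± 0.457 FPKM (SD, n = 3). The log2 fold change was -0.82 (SE 0.15), the unadjusted limma p was 0.000375 and the limma p adjusted over all genes was 0.120, which did not pass. The gene stood at rank 42 of the 13777 by p. The exact two-sided permutation test over the 56 splits gave p = 0.0179, the smallest it can give. When limma weighted libraries by their quality, its adjusted p was 0.0202 at a log2 fold change of -0.82. Its receptor gene *Cxcr5* lay under the limit for testing, at 0.0999 to 0.389 FPKM in WT and 0.324 to 0.567 FPKM in null buds, with overlapping groups.

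Markers of other cell types also differed between the buds. Endothelial markers had a summed FPKM of 186 to 312 in WT and 133 to 203 in null buds, and 15 of 15 tested had a lower level in null buds. Of 15 tested mesenchymal markers 13 were lower, among them *Pdgfra*, at 55.9 ± 19.8 FPKM (SD) in the 5 WT buds and 28.9 ± 7.97 FPKM in the 3 null buds. Both lists had a median log2 fold change of -0.39, and their part in the lower *Cxcl13* and *Ackr3* values was not tested.

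*Cxcl13* lies on chromosome 5 of GRCm38 (chr5:95956951-95961068, plus strand), apart from the other CXC ligands of that chromosome. The 250 bases before its RefSeq transcript start are shown because *Cxcl13* was the member with the smallest p between genotypes in a Hippo pathway mutant. YAP and TAZ, which LATS kinases restrain, act through TEAD factors, and the capitals mark the TEAD core GGAATG on the shown strand (GRCm38.p6, chr5:95956689-95956938, plus strand).
Cxcl13: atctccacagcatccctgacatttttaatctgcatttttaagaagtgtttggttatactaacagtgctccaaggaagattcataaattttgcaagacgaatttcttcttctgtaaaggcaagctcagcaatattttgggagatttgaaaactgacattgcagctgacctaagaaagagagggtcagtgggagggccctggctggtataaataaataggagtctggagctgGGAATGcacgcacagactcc
The match starts 20 bases before the transcript start. GGAATG or its reverse complement was found in the same window of 6 of the 45 members with a RefSeq promoter, or 13.3%, and of 14.4% of all 27025 genes with one. The other 5 members were *Ccl17*, *Ccl20*, *Ccr6*, *Cxcl3* and *Cxcr2*, none of them tested. The letters were therefore about as frequent in the family as elsewhere, and a match is a description of the sequence alone.

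*Cx3cl1* encodes fractalkine, a membrane-bound ligand that holds CX3CR1-bearing monocytes and macrophages and can be shed. It measured 1.51, 1.28, 1.00, 1.03 and 1.64 FPKM in the WT buds and 1.73, 1.71 and 3.14 FPKM in the null buds. The lowest null values lay just above the highest WT value, and null replicate 3 lay far above all others. The log2 fold change was 0.46 (SE 0.18), with an unadjusted limma p of 0.0341, an adjusted limma p of 0.399 and an exact two-sided permutation p of 0.0357. Without null replicate 3 the log2 fold change was 0.26 and the unadjusted limma p 0.150. Null replicate 3 also had the highest epithelial marker sum, which lay between 244 and 311 FPKM in WT and between 489 and 1184 FPKM in null buds, with 14 of 14 tested markers higher in null buds and a median log2 fold change of 1.26. The part of the epithelial share in the *Cx3cl1* values was not tested.

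Its receptor gene *Cx3cr1*, a marker of microglia and tissue macrophages, measured 2.61, 2.08, 1.33, 2.1 and 1.53 FPKM in WT and 3.02, 2.56 and 1.19 FPKM in null buds. The null values spanned more than the whole WT range, and the log2 fold change was 0.12 (95% interval -0.39 to 0.63). Its annotated span overlaps several other genes, 3 of them on its own strand, so its level is uncertain. The macrophage and leukocyte markers had summed FPKM of 19.6 to 40.0 in WT and 31.8 to 43.9 in null buds, with 8 of 13 tested higher, 5 lower and a median log2 fold change of 0.22. The macrophage marker *Csf1r* lay between 1.79 and 3.11 FPKM in WT and between 1.82 and 2.89 FPKM in null buds, while the T cell marker *Cd3e* was at 0 throughout. The marker with the smallest p was *Fcer1g*, a signalling subunit of myeloid and mast cell receptors. It lay between 1.96 and 2.41 FPKM in WT and between 3.17 and 5.39 FPKM in null buds, so that the groups were separate, with an unadjusted limma p of 0.00204 and an adjusted limma p of 0.196.

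**Figure D3:**
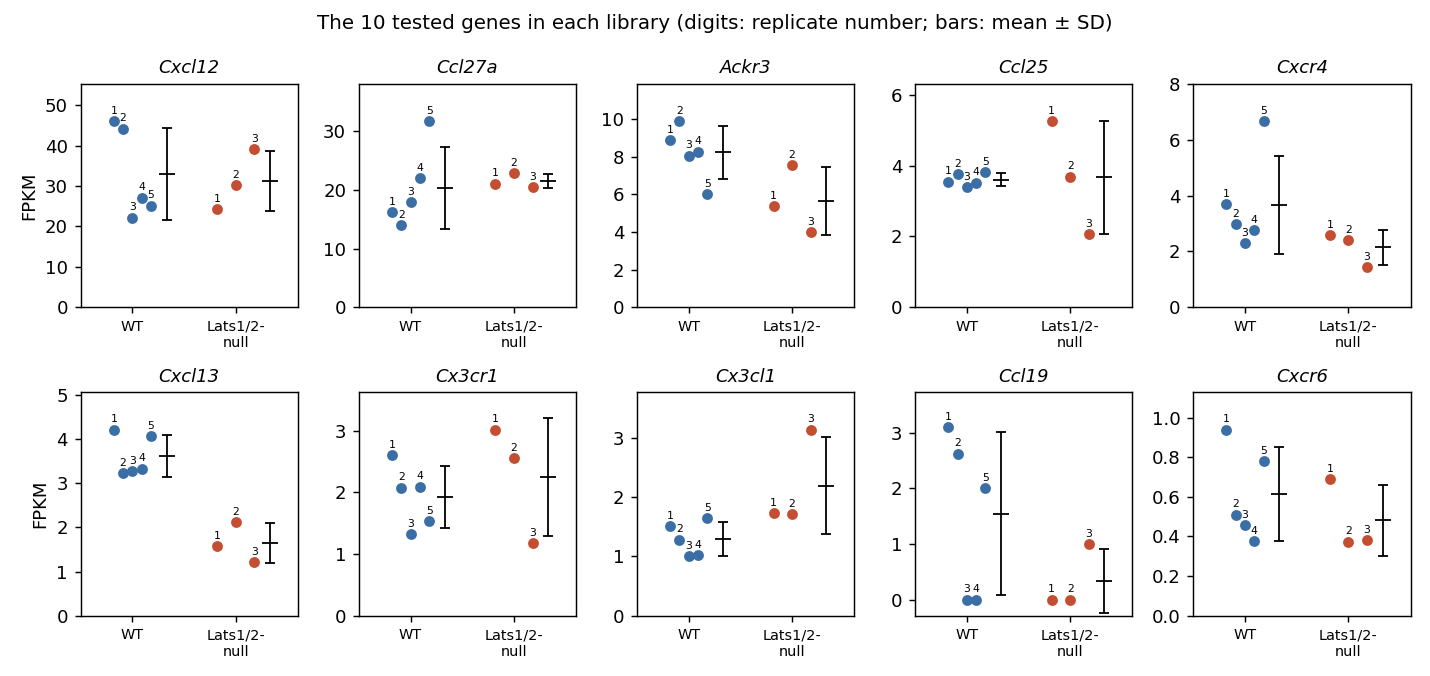
FPKM of each tested chemokine gene in each bud, 1 panel per gene with its own axis; digits are replicate numbers and bars give the mean ± SD of WT (n = 5) and *Lats1/2*-null (n = 3) buds. The groups are separate for *Cxcl13* and *Cx3cl1* and overlap for the other 8 genes.

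*Cxcl12*, which had the highest mean of the 61 genes, signals through CXCR4 and is taken up by ACKR3. It measured 46.1, 44.2, 22.1, 27.1 and 25.1 FPKM in WT and 24.3, 30.2 and 39.1 FPKM in null buds. The null values all lay within the WT range, in which replicates 1 and 2 were the highest. The log2 fold change was -0.04 (SE 0.26, 95% interval -0.63 to 0.55), an interval that still holds changes of substantial size in either direction.

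*Cxcr4* measured 3.70, 2.97, 2.28, 2.75 and 6.69 FPKM in WT and 2.58, 2.41 and 1.43 FPKM in null buds. WT replicate 5 stood above the rest, and 2 of the 3 null values lay inside the WT range. The log2 fold change was -0.53 (SE 0.27), with an adjusted limma p of 0.524 and an exact two-sided permutation p of 0.143.

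*Ackr3*, the scavenging receptor for the same ligand, measured 8.89, 9.92, 8.06, 8.28 and 6.03 FPKM in WT and 5.37, 7.56 and 3.97 FPKM in null buds. It was the most abundant receptor gene of the family in 7 libraries, and *Cxcr4* exceeded it in WT replicate 5 alone. The groups overlapped through WT replicate 5 and null replicate 2. The log2 fold change was -0.50 (SE 0.19), with an unadjusted limma p of 0.0290, an adjusted limma p of 0.384 and an exact two-sided permutation p of 0.0536. Without null replicate 3 the log2 fold change of *Ackr3* was -0.31 and its unadjusted limma p 0.138. The ratio of *Ackr3* to *Cxcr4* FPKM ran from 0.901 to 3.53 in WT and from 2.08 to 3.14 in null buds, and the WT range held all null ratios.

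*Ccl27a*, known in skin as a T cell attractant that acts through CCR10, measured 16.2, 14.0, 18.0, 22.0 and 31.8 FPKM in WT and 21.1, 22.8 and 20.5 FPKM in null buds. All null values lay within the WT range, and the log2 fold change was 0.13 (95% interval -0.37 to 0.63). The gene (chr4:41769467-41774247) has the near-identical copy *Ccl27b*, so its level is uncertain. It also overlaps *Il11ra1* on the other strand, and the libraries were stranded. *Ccr10* lay at 0.251 to 0.367 FPKM in WT and 0.241 to 0.444 FPKM in null buds, from about 4 to 7 fragments per library.

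*Ccl25*, which attracts thymocytes and gut lymphocytes through CCR9, measured 3.56, 3.76, 3.39, 3.53 and 3.82 FPKM in WT and 5.28, 3.70 and 2.06 FPKM in null buds. The WT buds were nearly alike and the null buds lay on both sides of them, with SDs of 0.178 and 1.61 FPKM. The log2 fold change was -0.04 (95% interval -0.50 to 0.42). It overlaps *Elavl1* on the other strand. Its receptor gene *Ccr9* was at most 0.120 FPKM in any library.

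*Ccl19*, a ligand of CCR7 that guides dendritic cells and T cells, measured 3.10, 2.62, 0, 0 and 2.00 FPKM in WT and 0, 0 and 0.998 FPKM in null buds. It was at 0 in 4 of 8 libraries and had the widest interval of the family, from -1.99 to 0.46 on the log2 scale. The annotation holds near-identical pseudogene copies of *Ccl19*, so the switch between 0 and several FPKM is uncertain. *Ccr7* was above 0 in 5 libraries and reached 0.394 FPKM, and the other CCR7 ligand, *Ccl21a*, reached 0.264 FPKM and was above 0 in 2. *Ccl21a* belongs to the same near-identical copies as *Ccl21b* and *Ccl21c*, so its level is uncertain too.

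*Cxcr6* marks activated T cells and innate lymphocytes, and its ligand *Cxcl16* is made by macrophages and endothelium. *Cxcr6* measured 0.939, 0.510, 0.459, 0.375 and 0.780 FPKM in WT and 0.688, 0.375 and 0.381 FPKM in null buds, with a log2 fold change of -0.12 (SE 0.17). *Cxcl16* measured 0.502, 0.472, 0.174, 0.406 and 0.322 FPKM in WT and 0.348, 0.811 and 0.124 FPKM in null buds. The groups overlapped for both genes. *Cxcr6* lies within *Fyco1*, which is transcribed from the other strand.

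The ligands that recruit monocytes and macrophages were low in both genotypes, with a sum over 11 genes of 0.754 to 2.28 FPKM in WT and 0.327 to 1.27 FPKM in null buds. *Ccl3* led them, at 0.306, 0.466, 0.158, 0.441 and 1.18 FPKM in WT and 0.314, 0.147 and 0 FPKM in null buds. These values came from about 15 fragments in 5 WT and 3 fragments in 3 null libraries, and the groups overlapped. *Ccl6* reached 0.623 FPKM and *Ccl9* 0.163 FPKM, each at 0 in 1 library. *Ccl2*, *Ccl4*, *Ccl5* and *Ccl12* were each above 0 in a single library, which for *Ccl5* was a null and for the others a WT bud. Among the receptors of these ligands, *Ccr1* was at 0.0745 to 0.551 FPKM in WT and 0.208 to 0.484 FPKM in null buds. *Ccr2* reached 0.334 FPKM and *Ccr3* 0.0319 FPKM, and none of these 3 receptors separated the groups.

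The neutrophil-attracting and interferon-induced CXC ligands were at or near 0. The ELR type, named for a motif before the first cysteines, summed to 0.112 to 0.528 FPKM in WT and 0.126 to 0.796 FPKM in null buds over 5 genes. *Cxcl3* was the highest of them, at up to 0.288 FPKM in WT and 0.578 FPKM in null buds, the latter from about 5 fragments. *Cxcl5* and *Cxcl15* reached 0.197 and 0.202 FPKM, *Cxcl1* was above 0 in WT replicate 5 alone at 0.157 FPKM, and their receptor gene *Cxcr2* reached 0.17 FPKM. Of the ligands of CXCR3, *Cxcl10* was above 0 in null replicate 3 alone, at 0.2 FPKM, and *Cxcr3* itself in WT replicate 2 alone.

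Several of these low genes hold matches to the NFκB consensus, which are shown because the decamer was more frequent in the family than elsewhere. The NFκB consensus decamer was found on either strand in the 250 bases before the start of 11 of 45 members, or 24.4%, and of 8.23% of all 27025 genes. Capitals mark the matches, which on both strands of *Cxcl1*, *Cxcl2* and *Cxcl3* overlap to a run of 11 bases. The stretches are from GRCm38.p6, in the order printed chr5:90891159-90891199 (plus), chr5:90903787-90903827 (plus), chr5:90786013-90786053 (plus) and chr5:92348968-92349063 (minus).
Cxcl1: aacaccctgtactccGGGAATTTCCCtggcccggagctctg
Cxcl2: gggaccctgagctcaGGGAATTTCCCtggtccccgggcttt
Cxcl3: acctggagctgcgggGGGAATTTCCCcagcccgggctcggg
Cxcl10: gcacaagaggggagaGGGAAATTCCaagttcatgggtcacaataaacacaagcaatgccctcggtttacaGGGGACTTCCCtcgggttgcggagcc
The other 7 members with a match were *Ackr2*, *Ccl1*, *Ccl9*, *Ccl20*, *Ccr1*, *Ccr3* and *Ccr6*. All 11 were left untested by their low mean, and *Cxcl2*, *Ccl1* and *Ccr6* were at 0 in every library. As for TEAD, a match describes the sequence alone. *Ccl20*, which is known to be induced in gut epithelium, was above 0 in null replicate 2 alone.

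Among the remaining receptors, *Ackr1* was the one whose groups were separate, and it was picked out after its values were seen. This atypical receptor of venules and red cells measured 0.385, 0.491, 0.299, 0.465 and 0.495 FPKM in WT and 0, 0.186 and 0.0941 FPKM in null buds. The steps of the values correspond to about 4, 5, 3, 5 and 4 fragments in WT and 0, 2 and 1 in null buds, in all 21 against 3. The exact two-sided permutation p was 0.0179, the smallest possible, with no adjustment for the choice. *Ackr1* overlaps *Cadm3* on the same strand, so the fragments may belong to either gene. Of 5114 genes above 0 with a mean under 0.5 FPKM, 2.93% had separate groups, and of the 34 members there 2 did, *Ackr1* and *Ccl24*. *Ccl24*, an eosinophil attractant also picked out here for its values, was separate in FPKM alone (lowest WT 0.0850, highest null 0.0833), since about 1 fragment lay behind both. *Ackr2*, which clears inflammatory CC ligands, ran from 0.105 to 0.773 FPKM in WT and from 0 to 0.166 FPKM in null buds, its highest value being that of WT replicate 5. *Ackr4* was at 0.0954 to 0.189 and 0.143 to 0.306 FPKM.

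The last detected genes were *Ccr4*, at up to 0.216 FPKM, its ligand *Ccl17*, at up to 0.278 FPKM in 2 libraries, and the mucosal or epithelial ligands *Cxcl14*, *Cxcl17* and *Ccl28*. *Cxcl14* reached 0.279 FPKM in WT and 0.278 FPKM in null buds, *Cxcl17* 0.207 and 0.659 FPKM, and *Ccl28* 0.187 and 0.344 FPKM. None of these separated the genotypes. In all, 8 of the 44 detected genes were above 0 in 1 library and 4 in 2 libraries.

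Neighbouring members were mostly low. Linking members no more than 1 Mb apart gave 7 clusters of at least 3 genes with 34 members, of which 4 reached the level for testing, against 6 of the 26 members outside them, and 1 member had no coordinates. The chromosome 11 cluster of *Ccl2*, *Ccl7*, *Ccl11*, *Ccl12*, *Ccl8* and *Ccl1* (chr11:82035571-82305690) summed to between 0 and 0.455 FPKM per library. The next cluster on that chromosome, with *Ccl5*, *Ccl9*, *Ccl6*, *Ccl3* and *Ccl4* (chr11:83525778-83664683), summed to 0.245 to 2.06 FPKM. The chromosome 4 cluster of *Ccl27a*, *Ccl21b*, *Ccl27b*, *Ccl19* and *Ccl21a* (chr4:41769467-42773993) summed to 16.6 to 34.1 FPKM, and *Cx3cl1* and *Cxcr6* also lie in clusters. *Cxcl12*, *Cxcl13*, *Ccl25*, *Ackr3* and *Cxcr4* each stand alone, as do low genes such as *Ackr1* and *Cxcl14*. These counts describe the table and were not tested.

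Genes that carry the chemokine signal inside the cell were well expressed. Of 38 in the table, 32 were tested, 0 passed an adjusted p of 0.05 by limma, 12 were higher and 20 lower in null buds, and the median log2 fold change was -0.05. At an unadjusted p under 0.05, 2 were higher and 4 lower, where 6.29% and 4.99% of all genes tested were. *Gnai2*, the Gi subunit most used by chemokine receptors in leukocytes, measured 250.2 ± 9.22 FPKM (SD) in the 5 WT buds and 236 ± 19.2 FPKM in the 3 null buds. The smallest p was that of *Tiam1*, an activator of the GTPase RAC, at 15.5 ± 1.33 and 21.2 ± 4.07 FPKM, with a log2 fold change of 0.42 and an adjusted limma p of 0.263.

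Other inflammatory genes, namely cytokines, acute phase proteins, adhesion molecules and enzymes, were mostly low. Of 25, only 2 reached the level for testing, and *Il6*, *Csf2*, *Csf3*, *Ifnb1*, *Ifng*, *Lcn2*, *Saa3* and *Sele* were at 0 in all libraries. Among those below it, *Saa1*, an acute phase protein, lay between 0 and 0.620 FPKM in WT and between 0.620 and 1.10 FPKM in null buds, and the groups only just failed to overlap. *Lif*, a cytokine picked out after its values were seen, lay between 0 and 0.0258 FPKM in WT and between 0.144 and 0.303 FPKM in null buds. These 2 were the genes of the list with separate groups, beside the 2.93% of low genes given above. The adhesion molecule *Icam1* measured 3.51 ± 1.97 FPKM (SD) in the 5 WT buds and 4.53 ± 1.08 FPKM in the 3 null buds, and the macrophage growth factor *Csf1* 2.90 ± 0.897 and 1.93 ± 0.615 FPKM, neither passing the limma test (adjusted p = 0.696 and 0.537). Another list held 10 genes in the table that the naming rule leaves out, both ligands and receptors related to the family. Of these 5 were tested, with 1 higher, 4 lower, 0 called and a median log2 fold change of -0.23. *Mif*, a cytokine that binds CXCR4, lay between 531 and 1039 FPKM in all buds. *Pf4*, the platelet chemokine CXCL4, measured 32.4 ± 9.44 FPKM (SD) in the 5 WT buds and 43.0 ± 13.9 FPKM in the 3 null buds, with a log2 fold change of 0.40, an adjusted limma p of 0.663 and overlapping groups. *Rarres2*, the precursor of chemerin, measured 15.2 ± 4.28 and 8.55 ± 4.44 FPKM, with a log2 fold change of -0.82 and an adjusted limma p of 0.346.

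**Figure D4:**
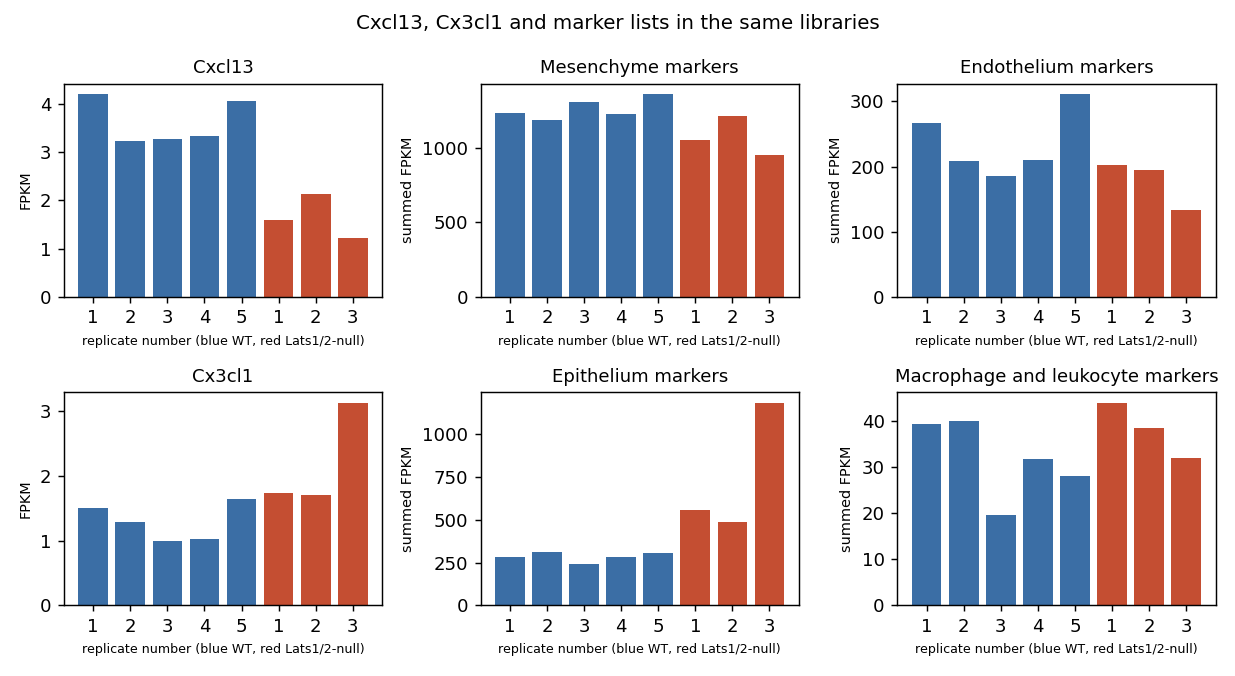
Bars give, for each WT (blue, n = 5) and *Lats1/2*-null (red, n = 3) bud, the FPKM of *Cxcl13* and *Cx3cl1* and the summed FPKM of markers of mesenchyme, endothelium, epithelium, and macrophages and leukocytes. Epithelial sums are higher in all null buds, at 489 to 1184 FPKM against 244 to 311, while macrophage and leukocyte sums overlap between genotypes.

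The other marker lists complete the account of what the buds held. Markers of pancreatic progenitors summed to 105 to 145 FPKM in WT and 171 to 430 FPKM in null buds (10 of 11 tested higher, median log2 fold change 0.63), so the libraries hold pancreatic tissue as labelled. Mesenchymal markers were present in every bud despite the dissection, at 1183 to 1360 and 949 to 1212 FPKM. *Vim* alone held 361 to 481 FPKM of these sums in WT and 464 to 601.5 FPKM in null buds. Its log2 fold change was 0.27, against the direction of most of the list. The paper reports VIM protein in the mutant epithelium, so these sums do not measure mesenchyme alone. Endocrine (11 of 12 higher, median 0.65), liver (9 of 9, 0.50), erythroid (10 of 10, 0.50) and neural crest and neuron markers (7 of 10, 0.31) had positive medians. Platelet markers (5 of 7 higher, 0.03) stood near 0, and mesothelial markers had 4 of 5 lower (-0.34). The mesothelial sum nevertheless lay higher in null buds, at 11.9 to 22.8 FPKM in WT and 23.8 to 53.3 FPKM in null buds. The 1 higher gene, *Krt19*, measured 3.42 ± 0.745 FPKM (SD) in the 5 WT buds and 25.3 ± 18.9 FPKM in the 3 null buds. *Krt19* is also on the epithelial list. No marker gene passed the adjusted p of 0.05. The part of cell composition in the chemokine values was not tested.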

How the data were processed

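Total RNA from 8 buds was sequenced as rRNA-depleted stranded libraries. The authors trimmed reads with cutadapt 1.12, aligned them to GRCm38 with TopHat 2.1.0 and deposited FPKM per gene from Cufflinks/Cuffdiff 2.2.1. Quantile normalization is stated in the methods, but the columns do not share a distribution and they were used as deposited. Groups came from the labels. The 13777 genes averaging 0.5 FPKM or more were compared on log2(FPKM + 1) by limma 3.58.1 in R 4.3.3, with trended variances and Benjamini-Hochberg adjustment, and the script was tested on simulated data. Exact permutation tests used the 56 splits of 5 and 3 libraries. What a fragment was worth was read from steps in low values of 393 single-exon genes. Coordinates are from GENCODE M21, promoters from RefSeq. Near-zero values rest on few fragments, so no interval for counting error is given.

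The members and lists were chosen with earlier results of these data known. Detected members are named, except 1 gene that is not reported here, the 12 with the highest means with all values; of each list, genes were named by mean or smallest p. *Csf1r* and *Cd3e* were named as defining markers. The settings varied were the pseudocount (0.1), the filter (2 FPKM or none), the scaling (quantile or median-ratio), array weights, the variance trend, a replicate block and each library in turn. Figures were drawn with matplotlib 3.10.9.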

Additional observations from a re-analysis of the deposited data

Results flagged for a closer look

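*Lats2* in the WT libraries held a value far from the others: 11.6 FPKM in WT replicate 5, with the nearest at 14.0 FPKM. The gap was 0.765 of the whole range, above the 95% limit of 0.71 for 5 samples. Of 22 groups examined this was the 1 that passed, and chance alone passes about 1 in 20. In WT replicate 5 a fragment was also worth the most FPKM of all libraries, 1.28 times its worth in WT replicate 1.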

How the results depend on the processing

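The 2 genes called of 13777 became 18 with a pseudocount of 0.1, 174 with array weights and 1 without the mean-variance trend. With single libraries left out the number ran from 0 to 19: it was 0 without WT replicate 1, 2, 3 or 5, 4 without WT replicate 4, and 1, 6 and 19 without *Lats1/2*-null replicate 1, 2 and 3. Array weights called 1 member, *Cxcl13*. Leaving out libraries gave 1 to 3 members at an unadjusted p under 0.05 and 2 to 3 with separate groups. *Cxcl13* kept its direction and an unadjusted p under 0.05 in all 15 alternatives without a block, with limma adjusted p from 0.0202 to 0.327. *Ccl25* reversed to 0.30 with array weights and ran from -0.28 to 0.24 with libraries left out. With libraries left out *Cx3cr1* ran from -0.054 to 0.39 and *Cxcl12* from -0.21 to 0.12. Over all 15 alternatives without a block, *Cxcl12* ran from -0.396 to 0.124. The causes were not tested. Detection fell to 27 members at a mean above 0.1 FPKM, 16 in every library and 9 at a mean of 1 FPKM. Over every member above 0, a choice made after seeing the data, 4 had separate groups. With the replicate number as a block, 1 gene and 0 members were called, and *Cxcl13* had a log2 fold change of -0.80 (adjusted limma p 0.451). Deviations of same-numbered libraries correlated with 0.0855, -0.0969 and 0.0685, and those of other pairs across the genotypes with -0.11 to 0.135. So few values showed no pairing by number, but they cannot exclude that buds shared a litter. Depth limits most genes under 0.5 FPKM, of which the short ones rest on a few fragments.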
